A study of Mus musculus with 12 samples.

Results

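Messenger RNA levels of 34 genes of ribosome biogenesis and of the Myc transcription factor were followed in mouse peritoneal macrophages that had been activated with or without emodin. The genes are a list of symbols, and a probe belonged to it when its accession mapped to one of them. All 34 were found, on 48 of the 55681 probes, among the 13164 genes that could be tested. The arrays were 12 one-colour Agilent microarrays, 4 in each of 3 groups. The group LPS_IFNg_emodin held macrophages of C57BL/6 mice, labelled wild type, given 100 ng/ml lipopolysaccharide (LPS), 20 ng/ml interferon gamma and 50 μM emodin for 20 hours. LPS_IFNg cells received LPS and interferon gamma at the same doses and no emodin, and control cells received vehicle. Animals were labelled 9 weeks old in the 2 stimulated groups and 8 weeks old in the control group. In all 3 groups cells that had not attached after 2 hours had been washed off, and the rest had spent a night without serum. Emodin is a plant anthraquinone, and LPS with interferon gamma is the usual stimulus for classical activation of macrophages. No label ties a sample to an animal. The p-values therefore describe how far these samples spread, which may be technical.

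Ribosomes are built mainly in the nucleolus. RNA polymerase I transcribes a long precursor RNA, small nucleolar ribonucleoproteins (snoRNPs) modify it, and the small and large subunits are then cut out and assembled by separate sets of processing factors. Myc, in a dimer with Max, is known as an activator of many of these genes through the DNA motif called the E-box, while Mxd1 competes for Max and represses. In macrophages this machinery is best known for its link to growth and proliferation. The list was therefore read in 6 roles: Myc and its partners (3 genes), RNA polymerase I subunits (3), snoRNP proteins (7), small subunit factors (9), large subunit factors (9) and nucleolar chaperones and regulators (3).

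A level here is the log2 processed signal of a gene's probe minus the 75th percentile of its array, so that 0 is the signal which 75% of probes do not exceed. A change is a difference between group means of these levels, given with its standard error, and a gene was called when limma's Benjamini-Hochberg adjusted p over all 13164 genes was under 0.05. LPS_IFNg against control is called activation below, and changes "with emodin" are those of LPS_IFNg_emodin against LPS_IFNg unless control is named. Every probe of the 34 members was well above background on all 12 arrays and none was saturated. The 75th percentile itself was 370 to 466 on the LPS_IFNg_emodin arrays, 637 to 795 on the LPS_IFNg arrays and 633 to 810 on the control arrays, in units of processed signal. Agilent's spike-in RNAs differed by -0.09 ± 0.06 on the log2 scale between LPS_IFNg_emodin and LPS_IFNg (exact permutation p = 0.2, two-sided), while the median of all kept probes differed by -0.75 ± 0.09 (exact permutation p = 0.0286, the smallest that 4 against 4 arrays allow). Scaling to the spike-ins therefore lowers every change between these 2 groups, and each direction below that it alters is marked. LPS_IFNg_emodin and LPS_IFNg arrays shared a slide, each group in its own row, whereas all control arrays lay on another slide, with spike-ins 2.59 higher on the LPS_IFNg than on the control arrays. Slide, age and stimulation thus cannot be told apart in comparisons with control. Likewise, row and emodin cannot be told apart in LPS_IFNg_emodin against LPS_IFNg. In 4 arrays sex-linked transcripts went against the sex label: replicate 3 of LPS_IFNg_emodin and of LPS_IFNg, labelled female, and control replicates 3 and 4, labelled male.

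The tissue label names peritoneal macrophages, while the design text speaks of PMN samples. All 7 macrophage markers measured, such as Csf1r, Adgre1 and Lyz2, were above background on every array. Of the 10 neutrophil markers 6 to 7 were above background on LPS_IFNg_emodin arrays, 4 on LPS_IFNg arrays and 7 to 9 on control arrays, with Ngp on none. Of the 11 mesothelial and fibroblast markers 5 to 8, 8 and 10 to 11 were above background in the same order, and their summed signal, in multiples of the 75th percentile, ranged over 12.7 to 41.5 with emodin, 83.2 to 161 with LPS_IFNg and 20.4 to 88.3 in control. The mesothelial markers Upk3b and Upk1b were above background on no stimulated array. Msln, another, was above background on all 4 arrays of each group. Wt1 and Krt19 were so on all 4 LPS_IFNg and all 4 control arrays, and on 2 and 1 LPS_IFNg_emodin arrays. Pdgfra, a fibroblast marker, was above background on no LPS_IFNg_emodin array and on all 4 arrays of each other group. Col1a1, Col1a2, Col3a1 and Dcn, further fibroblast markers, were above background on all 4 arrays of every group. Lum was above background on 1 LPS_IFNg_emodin array, no LPS_IFNg array and all 4 control arrays. The summed signal of 12 markers of dividing cells was 5.55 to 10.1, 6.28 to 6.63 and 4.98 to 7.23, and Mki67, one of them, had a mean level of 2.44, 0.92 and -0.17. Of the 9 that could be tested, Mki67 rose and 6 fell in LPS_IFNg_emodin against LPS_IFNg, with a median change of -1.23, and 1 rose and 7 fell in LPS_IFNg_emodin against control. Of all genes 35.1% rose and 36.8% fell in the first comparison, and 39% and 39.2% in the second. Cdk1, a mitotic kinase, averaged -3.87, -1.17 and -1.47, and Aurka, another, -2.14, 0.57 and -0.12. In LPS_IFNg against control 2 of the 9 rose and 3 fell, against 33.8% and 35.2% of all genes. Of the 9 lymphocyte markers 1 to 2, 3 to 7 and 4 to 6 were above background on LPS_IFNg_emodin, LPS_IFNg and control arrays. Among the 4 that could be tested, 1 rose and 3 fell in LPS_IFNg_emodin against LPS_IFNg, against 35.1% and 36.8% of all genes. In LPS_IFNg against control none rose and 1 fell, against 33.8% and 35.2%. In LPS_IFNg_emodin against control none rose and all 4 fell, against 39% and 39.2%. Of 10 mesothelial and fibroblast markers tested, none rose in these 2 comparisons with emodin arrays, where 5 and 9 fell. With activation 3 rose and 4 fell. Of 7 neutrophil markers tested, 5 rose and 2 fell with emodin, and 2 rose and 4 fell with activation. Against control 1 rose and 2 fell with emodin. The shares of all genes are those just given. The part of these other cells in the results was not tested. In such bulk samples, fewer cells of a type and less RNA per cell cannot be told apart.

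The E-box core CACGTG was looked up in promoters because it is the motif that Myc and Max dimers are known to bind. Promoters from 250 bases before to 50 bases after the start of a transcript were taken from RefSeq on GRCm38.p6. Of the 34 members 28 matched by symbol, with 30 promoters, and the match did not cover Bop1, Fbl, Myc, Npm1, Rrp12 or Rrs1. CACGTG, which reads the same on both strands, stood in 6 of the 30 promoters (20%), against 7.15% of all 32851 promoters of that length. The 6 are printed 5′ to 3′ on the gene's strand with CACGTG in capitals. They belong to Nop2 (chr6:125131633-125131932, plus strand), Utp20 (chr10:88826765-88827064, minus strand), Pes1 (chr11:3963725-3964024, plus strand), Mybbp1a (chr11:72441077-72441376, plus strand), Max (chr12:76962199-76962498, minus strand) and Wdr43 (chr17:71615965-71616264, plus strand).
Nop2: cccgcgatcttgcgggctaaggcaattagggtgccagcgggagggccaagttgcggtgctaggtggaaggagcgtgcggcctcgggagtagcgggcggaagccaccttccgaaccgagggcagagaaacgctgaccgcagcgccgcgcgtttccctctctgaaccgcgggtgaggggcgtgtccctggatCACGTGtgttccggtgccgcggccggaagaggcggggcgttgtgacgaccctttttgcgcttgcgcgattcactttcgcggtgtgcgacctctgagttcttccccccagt
Utp20: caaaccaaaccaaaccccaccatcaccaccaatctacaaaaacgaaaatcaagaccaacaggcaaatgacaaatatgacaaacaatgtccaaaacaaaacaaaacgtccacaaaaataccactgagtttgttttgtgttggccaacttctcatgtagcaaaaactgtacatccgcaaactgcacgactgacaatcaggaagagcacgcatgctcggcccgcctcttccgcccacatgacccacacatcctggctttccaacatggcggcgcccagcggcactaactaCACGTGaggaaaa
Pes1: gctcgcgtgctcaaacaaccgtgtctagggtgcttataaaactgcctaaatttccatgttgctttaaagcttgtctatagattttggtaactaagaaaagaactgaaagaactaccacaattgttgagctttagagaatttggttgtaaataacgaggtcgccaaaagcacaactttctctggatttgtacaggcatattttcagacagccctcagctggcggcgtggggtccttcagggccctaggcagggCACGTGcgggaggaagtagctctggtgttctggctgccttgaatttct
Mybbp1a: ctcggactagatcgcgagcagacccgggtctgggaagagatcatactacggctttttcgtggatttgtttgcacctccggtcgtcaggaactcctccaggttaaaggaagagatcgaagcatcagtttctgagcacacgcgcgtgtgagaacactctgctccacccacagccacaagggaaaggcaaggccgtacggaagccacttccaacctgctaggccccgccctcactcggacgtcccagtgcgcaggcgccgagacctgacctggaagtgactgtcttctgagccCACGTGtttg
Max: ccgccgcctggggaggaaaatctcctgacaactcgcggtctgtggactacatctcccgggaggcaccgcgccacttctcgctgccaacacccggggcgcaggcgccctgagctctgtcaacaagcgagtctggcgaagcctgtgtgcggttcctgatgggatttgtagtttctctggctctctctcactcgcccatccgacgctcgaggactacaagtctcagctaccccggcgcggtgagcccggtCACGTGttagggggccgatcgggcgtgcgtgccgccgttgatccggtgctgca
Wdr43: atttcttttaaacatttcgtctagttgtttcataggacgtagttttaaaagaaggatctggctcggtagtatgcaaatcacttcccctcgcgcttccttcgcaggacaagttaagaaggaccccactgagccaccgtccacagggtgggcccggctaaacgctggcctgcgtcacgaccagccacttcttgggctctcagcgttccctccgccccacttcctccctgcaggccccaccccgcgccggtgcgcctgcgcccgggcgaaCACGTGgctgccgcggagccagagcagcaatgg

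With the annotated start counted as base 1, the first C of the motif lay at position -60 in Nop2, -3 in Max, 3 in Pes1, 18 in Wdr43, 38 in Utp20 and 41 in Mybbp1a. Of the 6 members with the motif in this window, Nop2 and Max rose, Pes1 and Utp20 fell, and Mybbp1a and Wdr43 were not called in LPS_IFNg_emodin against LPS_IFNg. Of the 22 matched members without it, 8 rose, 7 fell and 7 were not called. In the same comparison 35.1% of all genes rose and 36.8% fell. With spike-in scaling Nop2, Max, Mybbp1a and Wdr43 turned below 0, Max and Wdr43 being called as falls. Of the 8 without the motif that rose, only Mxd1 was still called up there. A match of 6 letters describes the sequence and not binding.

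In LPS_IFNg against control, 4 of the 34 members rose and 9 fell, against 33.8% and 35.2% of all 13164 genes, so that 21 members were not called in a comparison that called 68.9% of genes. Arrays did not overlap for 4 higher and 9 lower members, against 31.4% and 32.7% of genes. Of members 1 rose and 3 fell by 2-fold or more, against 14.2% and 12.1% of genes. The median change of the members was -0.06, and that of all genes -0.04. With emodin added, in LPS_IFNg_emodin against LPS_IFNg, 12 members rose and 12 fell, against 35.1% and 36.8% of all genes, with a median of 0.07 for the members and -0.01 for all genes. In all, 71.8% of genes were called here. The shares of members lay near these backgrounds. All 4 arrays of the first group lay apart from all 4 of the second for 11 members that were higher and 10 that were lower, against 32.8% and 34.5% of genes. A called change of 2-fold or more was seen upward in 2 members and downward in 5, against 9.98% and 16.5% of genes. Scaled to the spike-ins, the same comparison had 2 members up and 22 down, with a median of -0.59, as 9.24% of all genes rose and 65.3% fell with a median of -0.67. LPS_IFNg_emodin against control had 10 members up and 14 down, against 39% and 39.2% of all genes, with 78.1% called in all and a median of -0.13 against -0.00. Arrays did not overlap for 10 higher and 14 lower members, against 36.1% of genes in each direction, and 5 rose and 6 fell by 2-fold or more, against 17.4% and 21.1%. Counts by role follow, and the plot of changes by role shows each member. No difference between roles was tested.

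**Figure D1:**
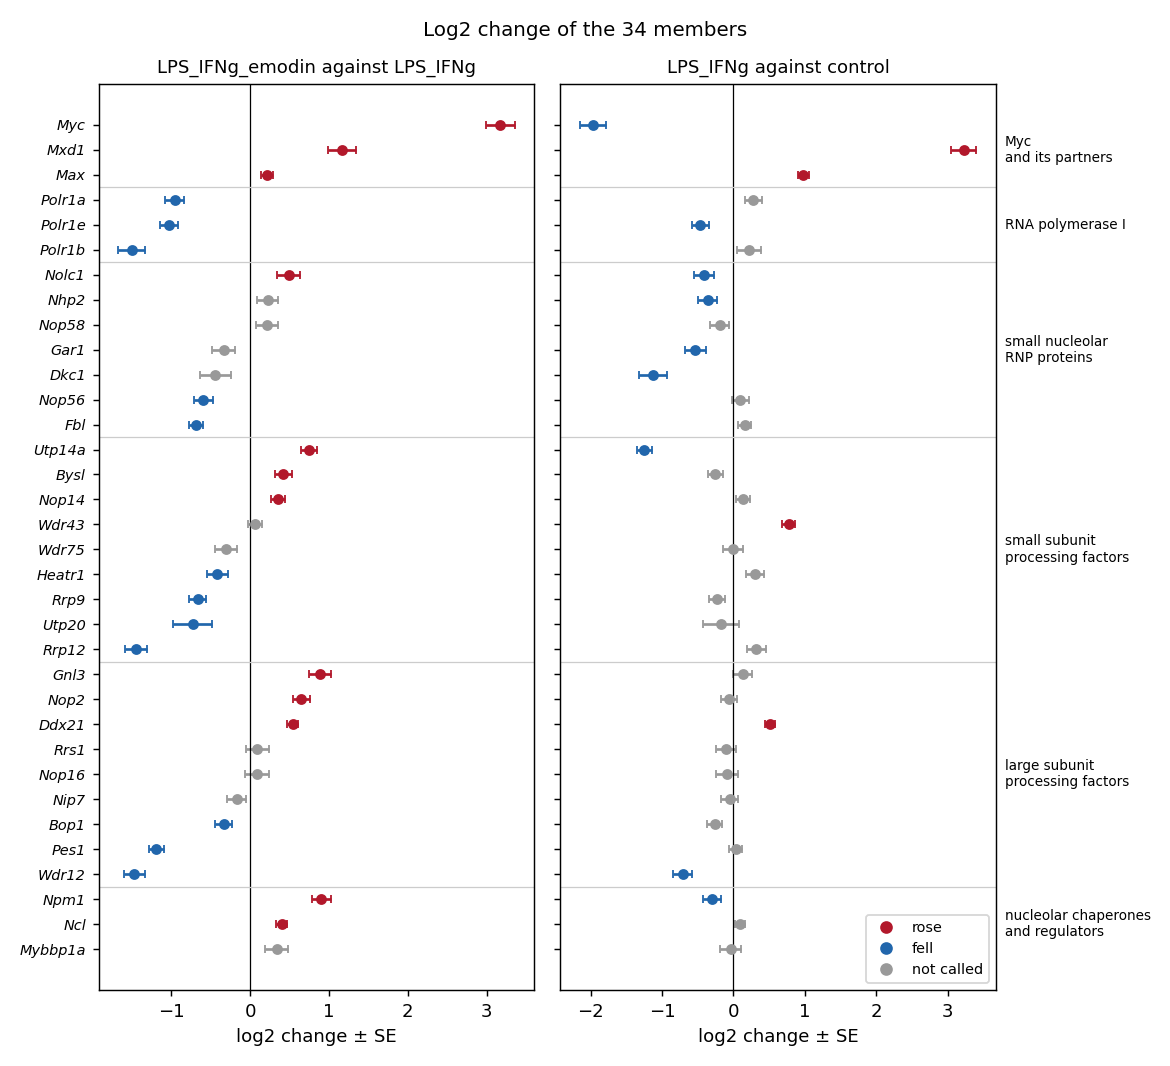
Log2 change ± SE (x axis) of each of the 34 members (rows, grouped by role), at left for LPS_IFNg_emodin against LPS_IFNg and at right for LPS_IFNg against control; red points rose, blue points fell and grey points were not called. At left the 3 RNA polymerase I subunits lie between -1.50 and -0.96 and Myc lies at 3.18. At right Myc lies at -1.97, Utp14a at -1.25, Dkc1 at -1.12, Max at 0.98 and Mxd1 at 3.22. The other points at right lie between -0.71 and 0.78.

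Myc itself changed most among the members with emodin, and it moved in opposite directions in the 2 steps. It stood at 1.32, 1.39, 1.60 and 1.50 on the LPS_IFNg_emodin arrays, at -1.61, -2.08, -1.83 and -1.36 on the LPS_IFNg arrays and at 0.52, 0.28, -0.25 and 0.44 on the control arrays. The 3 groups did not overlap: LPS_IFNg was lowest, control lay between, and LPS_IFNg_emodin was highest. Myc fell by 1.97 ± 0.18 in LPS_IFNg against control (3.91-fold, adjusted p = 1.2e-06). It rose by 3.18 ± 0.18 in LPS_IFNg_emodin against LPS_IFNg (9.03-fold, adjusted p = 2.59e-08), and by 2.51 with spike-in scaling. Above control the rise was 1.21 ± 0.18 (2.31-fold, adjusted p = 5.62e-05).

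Mxd1, the repressor that competes with Myc for Max, rose with activation and rose further with emodin. Its level was 4.87, 4.20, 4.50 and 4.33 on the LPS_IFNg_emodin arrays, 3.05, 3.22, 3.82 and 3.14 on the LPS_IFNg arrays and -0.01, 0.03, 0.27 and 0.04 on the control arrays. Here too no groups overlapped, and control was far below the others. The change was 3.22 ± 0.18 in LPS_IFNg against control (9.35-fold, adjusted p = 1.25e-08) and 1.17 ± 0.18 in LPS_IFNg_emodin against LPS_IFNg (2.24-fold, adjusted p = 8.63e-05). With spike-in scaling the second of these was 0.50 and still called. Max, the partner shared by Myc and Mxd1, had levels of 6.21, 6.19, 6.05 and 6.12 with emodin, 5.88, 5.92, 5.94 and 5.97 with LPS_IFNg alone and 4.97, 5.12, 4.93 and 4.77 in control. Both stimulated groups lay well above control, and LPS_IFNg_emodin lay narrowly above LPS_IFNg. Max rose by 0.98 ± 0.08 in LPS_IFNg against control (adjusted p = 3.28e-07). Its change of 0.22 ± 0.08 with emodin (adjusted p = 0.0238) was not called with quantile scaling (0.11) or without replicate 1 or 2 of either group (0.20 to 0.21), and it turned to -0.44, called as a fall, with spike-in scaling.

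**Figure D2:**
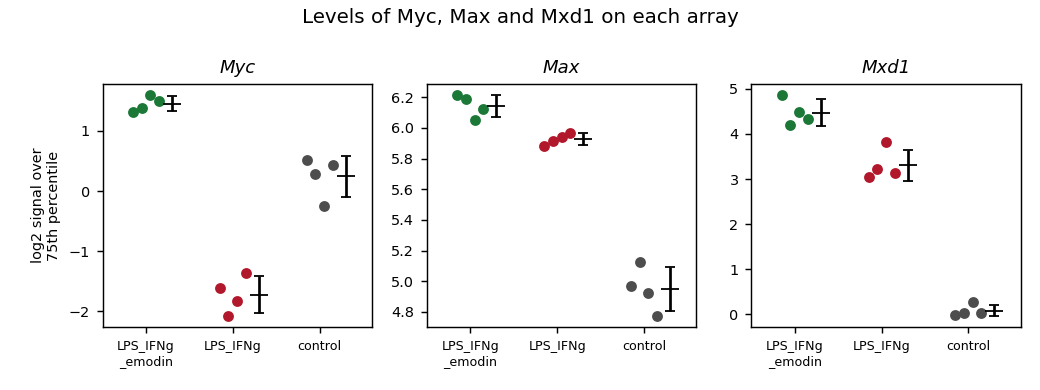
Level on each array (points; y axis, log2 signal over the array's 75th percentile) of Myc, Max and Mxd1 in LPS_IFNg_emodin, LPS_IFNg and control, with the mean ± SD of 4 arrays beside the points. Myc is lowest in LPS_IFNg (mean -1.72) and highest with emodin (1.45), while Mxd1 is lowest in control (0.08).

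Of RNA polymerase I, the enzyme that makes ribosomal RNA precursor, the members hold 3 subunits, and these 3 fell with emodin (background 36.8% of genes down). Further subunits are given below, among which Polr1c rose. Polr1a, the largest subunit, had levels of 1.11, 1.45, 1.39 and 1.31 on the LPS_IFNg_emodin arrays, 2.00, 2.47, 2.31 and 2.31 on the LPS_IFNg arrays and 1.96, 1.81, 1.94 and 2.26 on the control arrays. Polr1b, which forms the catalytic core together with Polr1a, had -1.36, -1.18, -0.79 and -1.13 with emodin, 0.86, 0.37, 0.11 and 0.22 with LPS_IFNg and 0.27, 0.01, 0.03 and 0.37 in control. For both genes every emodin array lay below every other array, and the LPS_IFNg and control arrays overlapped. Against LPS_IFNg, Polr1a fell by 0.96 ± 0.12 (adjusted p = 2.16e-05) and Polr1b by 1.50 ± 0.17 (2.83-fold, adjusted p = 7.32e-06). Against control they fell by 0.68 ± 0.12 and 1.28 ± 0.17. In LPS_IFNg against control neither was called (0.28 ± 0.12, adjusted p = 0.0593, and 0.22 ± 0.17, adjusted p = 0.265), although Polr1a passed without LPS_IFNg replicate 1 or control replicate 4 (0.37 each). Polr1e, the PAF53 subunit, fell in both steps, with -1.08, -0.68, -0.83 and -0.73 with emodin, 0.06, 0.49, 0.05 and 0.19 with LPS_IFNg and 0.69, 0.78, 0.61 and 0.56 in control. Its groups were ordered without overlap. It fell by 0.46 ± 0.11 with activation (adjusted p = 0.00348) and by a further 1.03 ± 0.11 with emodin (adjusted p = 7.04e-06), and was 2.81-fold lower with emodin than in control. With spike-in scaling the 3 falls grew to between -1.62 and -2.16.

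Among the 7 snoRNP proteins 4 fell and none rose in LPS_IFNg against control, against 35.2% and 33.8% of all genes. With emodin 2 fell and 1 rose, against 36.8% and 35.1%, or 6 fell and none rose with spike-in scaling, against 65.3% and 9.24%. Dkc1, Gar1 and Nhp2 belong to the H/ACA particles, which turn uridines of ribosomal RNA into pseudouridine, with Dkc1 as the enzyme. Dkc1 stood at -3.01, -2.54, -2.20 and -2.51 on the LPS_IFNg_emodin arrays, at -2.34, -2.03, -2.22 and -1.91 on the LPS_IFNg arrays and at -0.73, -0.84, -1.51 and -0.93 on the control arrays. All stimulated arrays lay below all control arrays, and the 2 stimulated groups overlapped. Dkc1 fell by 1.12 ± 0.19 with activation (2.18-fold, adjusted p = 0.000268), Gar1 by 0.54 ± 0.15 (adjusted p = 0.00644) and Nhp2 by 0.36 ± 0.13 (adjusted p = 0.0279). The Nhp2 call was lost without LPS_IFNg replicate 2 or 3 or control replicate 1 or 2 (-0.34 to -0.26).

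With emodin, the changes of Dkc1 (-0.44 ± 0.19, adjusted p = 0.0592) and Gar1 (-0.34 ± 0.15, adjusted p = 0.0578) against LPS_IFNg did not pass. With replicate numbers as a block on these 8 arrays both were called (adjusted p = 0.027 and 0.0395). Single arrays decided them too: Dkc1 passed when replicate 3 of LPS_IFNg_emodin (-0.56), replicate 1 of LPS_IFNg (-0.51) or replicate 3 of the controls was left out, and Gar1 without LPS_IFNg_emodin replicate 2 or 4 or LPS_IFNg replicate 3 (-0.40 each). Below control, both were lower with emodin, by 1.56 ± 0.19 and 0.87 ± 0.15. Nhp2 was at 0.22 ± 0.13 against LPS_IFNg and -0.14 ± 0.13 against control, neither called. With spike-in scaling the first became -0.44, called, and with quantile scaling the second became -0.55, called.

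Fbl, Nop56 and Nop58 form the box C/D particles, in which fibrillarin (Fbl) methylates ribosomal RNA. Fbl levels were 2.70, 2.91, 2.81 and 2.79 with emodin, 3.60, 3.52, 3.32 and 3.54 with LPS_IFNg and 3.54, 3.29, 3.31 and 3.21 in control. Every emodin array was below all others, and LPS_IFNg overlapped with control. Fbl fell by 0.69 ± 0.09 with emodin (adjusted p = 2.31e-05) and Nop56 by 0.59 ± 0.12 (adjusted p = 0.000843). Nop58 was not called (0.21 ± 0.14, 95% interval -0.09 to 0.52), but passed without LPS_IFNg_emodin replicate 1 (0.34) and turned to -0.45 with spike-in scaling. None of the 3 was called with activation alone. Fbl, at 0.16 ± 0.09, passed without control replicate 1 (0.22) and with normexp background correction (0.27). Nolc1, a chaperone of both kinds of particle, had 2.43, 3.11, 3.14 and 3.20 with emodin, 2.42, 2.62, 2.39 and 2.49 with LPS_IFNg and 2.95, 2.88, 2.85 and 2.90 in control. Replicate 1 of LPS_IFNg_emodin lay within the LPS_IFNg arrays and the other emodin arrays above them. Nolc1 rose by 0.49 ± 0.15 with emodin (adjusted p = 0.00958) but was at -0.17 with spike-in scaling. Its other probe was at -0.44, and the mean of both, 0.03, was not called. Its fall of 0.41 ± 0.15 with activation (adjusted p = 0.0246) was not called without LPS_IFNg replicate 1 or 3 or control replicate 1 (-0.39 to -0.38).

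The 9 small subunit factors split, with 3 up and 4 down in LPS_IFNg_emodin against LPS_IFNg, and 1 up and 1 down in LPS_IFNg against control. Of all genes 35.1% and 36.8% were called with emodin, and 33.8% and 35.2% with activation. Spike-in scaling left 0 up and 6 down with emodin (9.24% and 65.3% of genes). Rrp12, a factor in export and late maturation of the subunits, stood at -3.11, -2.63, -2.56 and -2.60 on the LPS_IFNg_emodin arrays, at -1.48, -1.10, -1.31 and -1.21 on the LPS_IFNg arrays and at -1.69, -1.70, -1.68 and -1.33 on the control arrays. The emodin arrays were far below both other groups, which overlapped. It fell by 1.45 ± 0.14 against LPS_IFNg (2.73-fold, adjusted p = 1.71e-06) and by 1.13 ± 0.14 against control (adjusted p = 9.57e-06). With activation its change was 0.32 ± 0.14 (adjusted p = 0.0538), called when replicate 1 of either stimulated group or replicate 4 of the controls was left out (0.32 to 0.41). Rrp9, the protein specific to the U3 snoRNP that guides the early cuts, fell by 0.67 ± 0.11 with emodin (adjusted p = 0.000172).

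Utp14a, a component of the small subunit processome, fell with activation and rose with emodin. Its levels were -0.41, -0.20, -0.22 and -0.42 with emodin, -1.15, -0.96, -1.26 and -0.89 with LPS_IFNg and 0.32, 0.26, 0.08 and 0.07 in control. The 3 groups did not overlap, with emodin in the middle. Utp14a fell by 1.25 ± 0.10 in LPS_IFNg against control (2.37-fold, adjusted p = 3.97e-07), rose by 0.75 ± 0.10 with emodin (adjusted p = 3.13e-05) and stayed 0.50 ± 0.10 below control. That rise was no longer called with spike-in scaling (0.09). Wdr43, a subunit of the complex that binds the nascent precursor RNA, showed 3.19, 3.30, 3.42 and 3.39 with emodin, 3.20, 3.34, 3.25 and 3.27 with LPS_IFNg and 2.72, 2.49, 2.35 and 2.39 in control. The stimulated groups overlapped and lay above control. It rose by 0.78 ± 0.09 with activation (adjusted p = 8.8e-06) and was at 0.06 ± 0.09 with emodin, not called, or at -0.60, called, with spike-in scaling.

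The remaining small subunit factors changed by less, or with more spread. Bysl, needed for maturation of the small subunit, rose by 0.42 ± 0.11 with emodin (adjusted p = 0.00363) and Nop14, a processome component, by 0.35 ± 0.09 (adjusted p = 0.00437), and both were below 0 with spike-in scaling (-0.24 and -0.31, not called). Heatr1, which acts in precursor transcription and processing, fell by 0.41 ± 0.13 (adjusted p = 0.0123). Utp20, a large processome component, fell by 0.73 ± 0.25 (adjusted p = 0.0208). It did not pass when replicate 1 of LPS_IFNg_emodin (-0.50) or replicate 2 (-0.54) or 4 (-0.66) of LPS_IFNg was left out. Wdr75, which works in the same complex as Wdr43, was at -0.31 ± 0.14 (adjusted p = 0.0607) and was called with the replicate block (adjusted p = 0.0148), as well as without LPS_IFNg_emodin replicate 2 or 4 or LPS_IFNg replicate 1 (-0.38 to -0.36). With activation, Bysl (-0.26 ± 0.11, adjusted p = 0.0502), Heatr1 (0.30 ± 0.13, adjusted p = 0.0544) and Rrp9 (-0.23 ± 0.11, adjusted p = 0.0791) lay just outside the threshold. Bysl passed without LPS_IFNg_emodin replicate 1, 2 or 3 or control replicate 3 (-0.30 to -0.26), Heatr1 without LPS_IFNg_emodin replicate 1 or 2, LPS_IFNg replicate 1 or control replicate 4 (0.30 to 0.40), and Rrp9 without LPS_IFNg_emodin replicate 1 (-0.23). With quantile scaling Bysl (-0.36) and Rrp9 (-0.26) were called as well.

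Of the 9 large subunit factors, 3 rose and 3 fell with emodin, and 1 rose and 1 fell with activation, where the shares of all genes were 35.1% and 36.8%, and 33.8% and 35.2%. Spike-in scaling left 0 up and 6 down with emodin (9.24% and 65.3% of genes). The 3 that fell, Pes1, Bop1 and Wdr12, are the members of one known complex, PeBoW, which processes the precursor of the large subunit's RNA. Wdr12 stood at -1.80, -1.31, -1.38 and -1.31 on the LPS_IFNg_emodin arrays, at 0.12, 0.18, -0.23 and 0.03 on the LPS_IFNg arrays and at 0.90, 0.85, 0.61 and 0.56 on the control arrays. No groups overlapped, and it was lower at each step. It fell by 0.71 ± 0.13 with activation (adjusted p = 0.000516), by 1.47 ± 0.13 with emodin (2.78-fold, adjusted p = 1.19e-06) and by 2.18 ± 0.13 between LPS_IFNg_emodin and control (4.53-fold). With emodin, Pes1 fell by 1.19 ± 0.09 (2.29-fold, adjusted p = 3.93e-07), by 0.75 on the mean of its probes with the other probe at -0.30, and Bop1 by 0.34 ± 0.11 (adjusted p = 0.0165). Neither was called with activation (0.03 ± 0.09 and -0.26 ± 0.11), but Bop1 passed without LPS_IFNg_emodin replicate 1 or 2 or LPS_IFNg replicate 2 (-0.30 to -0.26) and with quantile scaling (-0.40, adjusted p = 0.0048), the deposited value table (-0.40) and the percentile over probes detected on all arrays (-0.38).

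The 3 that rose were Gnl3, Nop2 and Ddx21. Gnl3 encodes nucleostemin, a nucleolar GTP-binding protein of dividing cells, and had levels of 2.78, 3.33, 3.21 and 3.15 with emodin, 2.21, 2.36, 2.05 and 2.31 with LPS_IFNg and 2.35, 2.23, 1.89 and 1.94 in control. The emodin arrays lay above all others, which overlapped. It rose by 0.88 ± 0.14 against LPS_IFNg (adjusted p = 9.87e-05) and by 1.01 ± 0.14 against control (adjusted p = 2.31e-05). Ddx21, an RNA helicase of the nucleolus, had 3.85, 4.01, 4.04 and 3.91 with emodin, 3.37, 3.53, 3.37 and 3.38 with LPS_IFNg and 3.00, 2.88, 2.78 and 2.95 in control. On the probe used its groups did not overlap and rose in 2 similar steps. These were 0.51 ± 0.07 with activation (adjusted p = 5.58e-05) and 0.54 ± 0.07 with emodin (adjusted p = 3.42e-05). Its other probe was at -0.31 with activation and 0.14 with emodin. Nop2, a methyltransferase of the large subunit's RNA, rose by 0.65 ± 0.11 with emodin (adjusted p = 0.000258). With spike-in scaling none of the 3 was called against LPS_IFNg, at 0.22 for Gnl3, -0.12 for Ddx21 and -0.011 for Nop2. Nop16, Rrs1 and Nip7, further factors of large subunit assembly, were not called in any comparison, with changes of 0.08, 0.09 and -0.17 with emodin. With spike-in scaling these became -0.58, -0.57 and -0.83, all called.

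Npm1 (nucleophosmin), an abundant RNA-binding protein and chaperone of the nucleolus, was higher with emodin on all its probes, while Ncl (nucleolin), another, was higher on the probe used and lower on its other probe. Npm1 levels were 7.61, 7.49, 7.46 and 7.58 on the LPS_IFNg_emodin arrays, 6.95, 6.59, 6.40 and 6.60 on the LPS_IFNg arrays and 7.02, 7.17, 6.80 and 6.74 on the control arrays. The emodin arrays lay above all others, and LPS_IFNg overlapped with control. Npm1 rose by 0.90 ± 0.12 against LPS_IFNg (1.87-fold, adjusted p = 3.46e-05), and by 0.24 with spike-in scaling, not called. Against control it rose by 0.60 ± 0.12 (adjusted p = 0.000664), but by 0.06 and not called with quantile scaling. Its fall of 0.30 ± 0.12 with activation (adjusted p = 0.0461) was not called without any single LPS_IFNg_emodin array, without LPS_IFNg replicate 2, 3 or 4 or without control replicate 1 or 2 (-0.30 to -0.22).

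Ncl had 5.45, 5.44, 5.51 and 5.52 with emodin, 5.08, 5.19, 4.92 and 5.12 with LPS_IFNg and 5.04, 5.02, 4.94 and 4.94 in control. Only the emodin arrays stood apart. It rose by 0.40 ± 0.07 (adjusted p = 0.000256) against LPS_IFNg, with its other probe at -0.57, and was at -0.26, not called, with spike-in scaling. Mybbp1a, a nucleolar regulator known to repress precursor transcription, had 4.76, 5.34, 5.23 and 4.99 with emodin, 4.45, 4.96, 4.76 and 4.79 with LPS_IFNg and 4.79, 4.71, 4.64 and 4.99 in control. All groups overlapped. Its change of 0.34 ± 0.14 with emodin (adjusted p = 0.0505) was called with the replicate block (adjusted p = 0.00754) and when replicate 1 of LPS_IFNg_emodin (0.44), replicate 2 of LPS_IFNg (0.41) or replicate 4 of the controls was left out, and was -0.33, not called, with spike-in scaling.

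**Figure D3:**
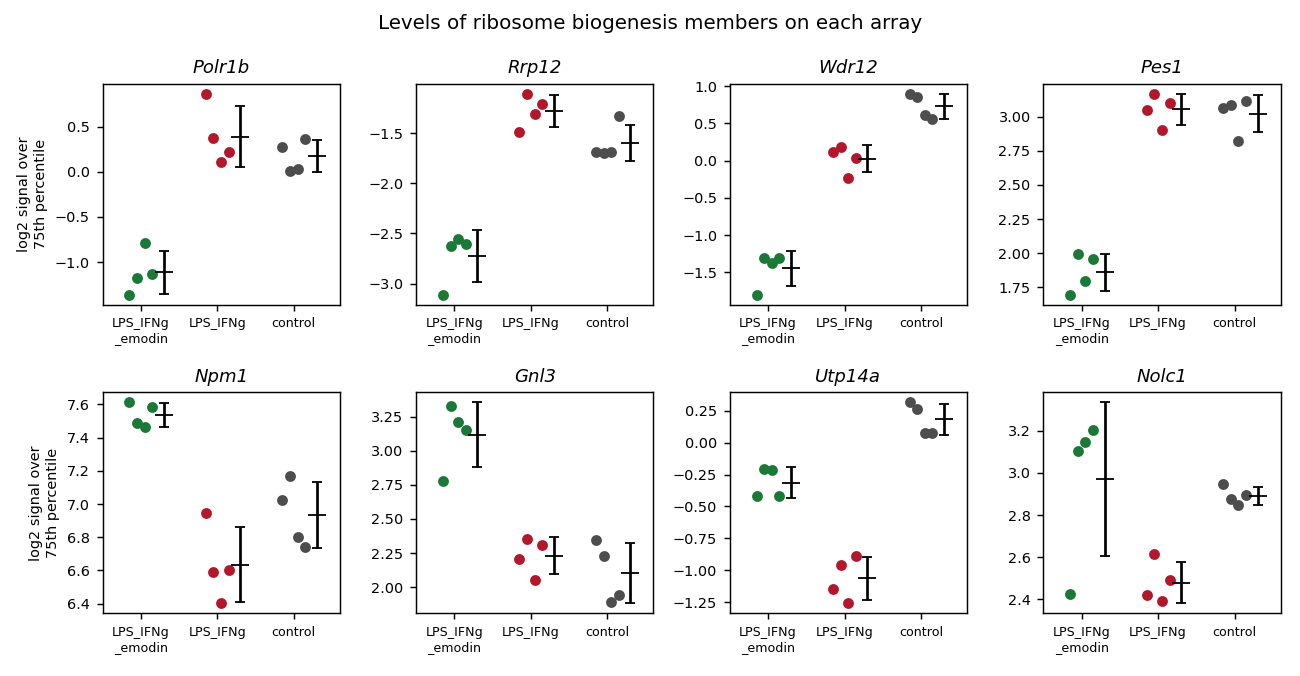
Level on each array (points; y axis, log2 signal over the array's 75th percentile) of 8 ribosome biogenesis members in LPS_IFNg_emodin, LPS_IFNg and control, with the mean ± SD of 4 arrays. Polr1b, Rrp12, Wdr12 and Pes1 (upper row) are lowest with emodin, Npm1 and Gnl3 are highest with emodin, and the LPS_IFNg_emodin replicate 1 point of Nolc1 lies at 2.43, with the LPS_IFNg points.

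Over the 3 comparisons, which share arrays pairwise, 9 members were not called with activation and were lower with emodin than in both other groups, a profile of 9.53% of all genes: Polr1a, Polr1b, Fbl, Nop56, Rrp9, Utp20, Rrp12, Pes1 and Bop1. The opposite profile, not called with activation and higher with emodin than in both other groups, was seen for 4 members, Nop14, Nop2, Gnl3 and Ncl, and for 9.11% of all genes, with the other probe of Ncl below both other groups (-0.57 and -0.66). None of these 4 was called up against LPS_IFNg with spike-in scaling. Max, Mxd1 and Ddx21 rose in every comparison, as did 10.3% of genes, although the other probe of Ddx21 was lower with activation (-0.31) and against control (-0.17). Of these only Mxd1 was still called up against LPS_IFNg with spike-in scaling. Polr1e and Wdr12 fell in every comparison, as did 11.8% of genes. Myc and Npm1 fell with activation and were above control with emodin, a profile of 4.69% of genes. Npm1 was not called against LPS_IFNg with spike-in scaling. That scaling was not run in LPS_IFNg_emodin against control, where the median of all kept probes differed by -0.79 ± 0.10. In 6 members, and 8.32% of genes, no comparison was called, namely Nop58, Wdr75, Nop16, Rrs1, Nip7 and Mybbp1a. Their 95% intervals with emodin, from -0.61 to 0.65 across the 6, do not show that these genes stayed the same. Against control, leaving out single arrays brought Wdr75 past the threshold (without LPS_IFNg_emodin replicate 2 or 4 or control replicate 4, -0.39 to -0.37), as well as Nip7 (without control replicate 4, -0.31) and Mybbp1a (without LPS_IFNg_emodin replicate 1, 0.40, or control replicate 4, 0.37). Quantile scaling brought Wdr75 (-0.39) and Nip7 (-0.47) past it too, and averaging probes called Nip7 with activation (-0.30) and against control (-0.43).

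Spike-in scaling moves all genes down by about the same amount, so that rises are lost and falls kept by construction. With it, Myc and Mxd1 were the members still called up against LPS_IFNg, and all 12 members that had fallen were called down. Under every alternative that was run for this comparison 11 falls and 2 rises kept their call, Utp20 being the fall that did not.

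**Figure D4:**
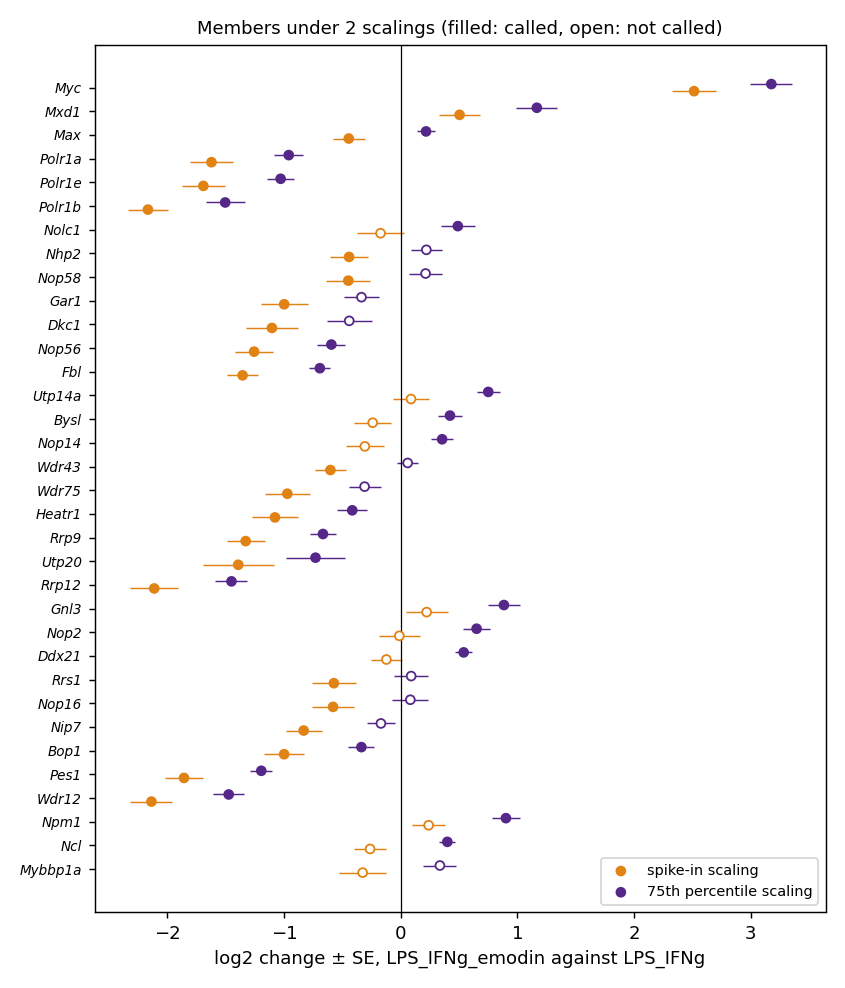
Log2 change ± SE (x axis) of each member (rows) in LPS_IFNg_emodin against LPS_IFNg, with arrays scaled to their 75th percentile (purple) or to the spike-ins (orange); filled points are called and open points are not. Every orange point lies left of its purple partner, Myc stays right of 0 at 2.51, and Polr1b lies at -2.16 in orange and -1.50 in purple.

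For 11 members the array carries several probes, and for 8 of them all probes had the same direction in LPS_IFNg_emodin against LPS_IFNg. Npm1 has 5, whose differences were 0.63 to 0.97. Mxd1 was at 1.17 with the probe used and 1.86 with the other, and Utp14a at 0.75 and 0.62. Ncl, Nolc1 and Wdr43 disagreed in direction: Ncl was at 0.40 with the probe used and -0.57 with the other, Nolc1 at 0.49 and -0.44, and Wdr43 at 0.06 and -1.24. Averaging a gene's probes accordingly gave -0.59, called, for Wdr43, and -0.085, not called, for Ncl. Ddx21 disagreed in LPS_IFNg against control, at 0.51 with the probe used and -0.31 with the other, and its mean over probes (0.10) was not called. Pes1 was at 0.03 and -0.12 with activation. The direction thus depends on the probe for Ncl, Nolc1 and Wdr43 with emodin, and for Ncl, Ddx21 and Pes1 with activation. In LPS_IFNg_emodin against control it does so for Ncl, Nolc1, Wdr43 and Ddx21.

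**Figure D5:**
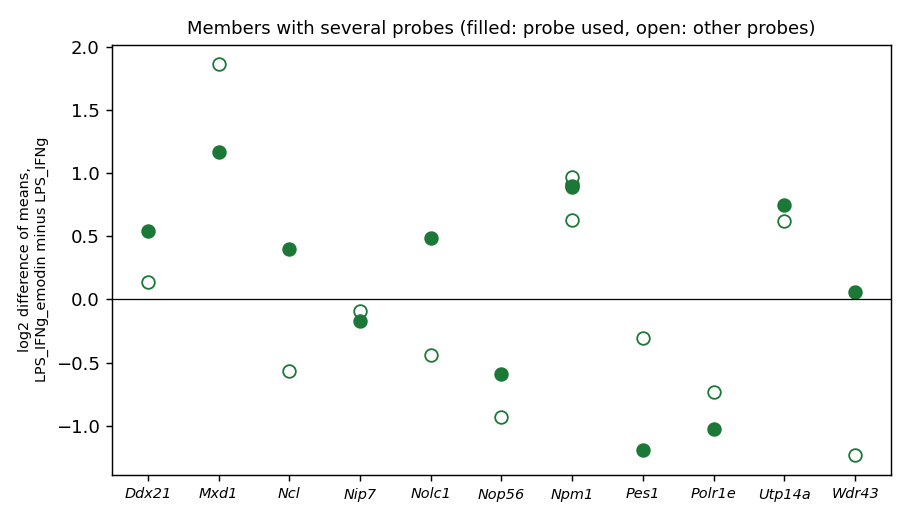
Difference of group means (y axis, log2, LPS_IFNg_emodin minus LPS_IFNg) for each probe of the 11 members with several probes; the filled point is the probe used for the gene and open points are its other probes. Ncl, Nolc1 and Wdr43 have probes on both sides of 0, while all 5 Npm1 probes lie at or above 0.63.

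Other genes of the same machinery moved in both directions too. All counts of these further lists stand against the same shares of all genes, 35.1% up and 36.8% down with emodin, 9.24% and 65.3% there with spike-in scaling, and 33.8% and 35.2% with activation. Of 11 further RNA polymerase I genes, 3 rose and 2 fell with emodin (1 and 7 with spike-in scaling), and 2 rose and 2 fell with activation. Ubtf, the factor that opens ribosomal gene promoters, rose by 1.72 ± 0.09 with activation (adjusted p = 1.19e-08), and Taf1d, a subunit of the promoter selectivity factor, by 1.36 ± 0.11 with emodin (adjusted p = 6.27e-07). Polr1c, a subunit shared with RNA polymerase III, rose by 0.83 ± 0.09 with emodin, not called with spike-in scaling (0.17), while the polymerase I subunit Cd3eap fell by 0.77 ± 0.12 and Twistnb, another, by 0.48 ± 0.10. With activation Polr1c was at 0.26 ± 0.09, a call lost with quantile scaling (0.12), Taf1d fell by 0.30 ± 0.11 (-0.20 and not called with normexp background correction) and Cd3eap by 0.46 ± 0.12.

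Of 10 further snoRNP factors 2 rose and 5 fell with emodin (1 and 8 with spike-in scaling), and 4 rose and none fell with activation. Tcof1, the nucleolar protein treacle that couples transcription with modification, rose by 0.77 ± 0.16 with activation and fell by 1.28 ± 0.16 with emodin, and the core protein Snu13 rose by 0.49 ± 0.10 with activation. Nufip1, a snoRNP assembly factor, rose by 1.61 ± 0.14 with emodin, and the assembly ATPase Ruvbl1 fell by 0.76 ± 0.10. Naf1, which assembles H/ACA particles, was at 0.44 ± 0.09 with emodin, turning to -0.22 with spike-in scaling.

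Among 43 further small subunit factors 13 rose and 14 fell with emodin (1 and 31 with spike-in scaling), and 12 rose and 11 fell with activation. Utp3 rose by 1.12 ± 0.08 with emodin, Dhx37, a processome helicase, by 1.22 ± 0.19 (0.56 and not called with spike-in scaling), and Rcl1 fell by 1.22 ± 0.13. Nol10 fell by 0.90 ± 0.30 with emodin, being above background on 3 of the 4 LPS_IFNg_emodin arrays and not called with normexp background correction (-0.17), and rose by 0.97 ± 0.30 with activation. Noc4l rose by 1.29 ± 0.07 with activation, while the methyltransferase Bud23 fell by 0.71 ± 0.07 and the acetyltransferase Nat10 by 0.59 ± 0.11.

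Of 44 further large subunit factors 16 rose and 14 fell with emodin (3 and 32 with spike-in scaling), and 8 rose and 15 fell with activation. Nsa2 rose by 1.23 ± 0.12 and Nifk by 1.11 ± 0.11 with emodin, whereas Rrp15 fell by 1.14 ± 0.12 and Gnl3l by 0.80 ± 0.13. With activation the helicase Ddx24 rose by 1.64 ± 0.10 and Eif6, which keeps subunits from joining early, by 1.26 ± 0.10, whereas Rrp1b fell by 0.80 ± 0.16 and Pa2g4 by 0.77 ± 0.09. The RNA exosome, which trims the precursor and degrades its spacers, had 5 genes up and 6 down of 14 with emodin (0 and 9 with spike-in scaling), and 3 up and 4 down with activation. Mphosph6 fell by 1.16 ± 0.14 and Exosc8 by 0.93 ± 0.11 with emodin. The catalytic subunit Dis3 (0.88 ± 0.07) and Exosc4 (0.74 ± 0.08) rose, calls that ended with spike-in scaling (0.22 and 0.07). With activation Exosc9 rose by 1.63 ± 0.12 and the helicase Mtrex by 0.40 ± 0.08, while Exosc5 fell by 0.97 ± 0.10 and Exosc6 by 0.70 ± 0.13.

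The wider Myc network had 7 tested genes outside the members, of which 5 rose and none fell with emodin, against 35.1% and 36.8% of all genes, or 1 and 3 with spike-in scaling, against 9.24% and 65.3%. With activation 2 rose and 3 fell, against 33.8% and 35.2%. Mycl, a paralogue of Myc, was well above background on all 4 LPS_IFNg arrays and on 0 of the 4 control arrays. Its LPS_IFNg level was at least 4.37-fold higher, a bound that was not itself tested. Its probe could stay in only through stimulated arrays, and it is 1 of the 2 counted as rising with activation. Mnt, a Max-binding repressor, rose by 1.34 ± 0.15 with emodin after falling by 0.74 ± 0.15 with activation. The related repressor Mxd4 fell by 1.73 ± 0.18 with activation. Mlx, a partner of the Mondo factors, rose by 0.34 ± 0.10 with activation, and Mlxip, one of those factors, by 0.90 ± 0.16 with emodin (0.24 and not called with spike-in scaling).

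Among 30 known Myc targets outside the nucleolus, 13 rose and 9 fell in LPS_IFNg_emodin against LPS_IFNg, the comparison in which Myc rose 9.03-fold, and 3 rose and 17 fell with spike-in scaling. Their median change was 0.15, or -0.51 with spike-in scaling, against -0.01 and -0.67 for all genes. Odc1, the rate-limiting enzyme of polyamine synthesis, rose by 1.90 ± 0.11 with emodin (adjusted p = 3.08e-08) and Slc3a2, the heavy chain of an amino acid transporter, by 1.39 ± 0.08 (adjusted p = 3.3e-08). Slc7a5, the light chain that pairs with Slc3a2, fell by 1.73 ± 0.20 (adjusted p = 1.05e-05), and the cyclin gene Ccnd2 fell, with a change of -3.10 ± 0.24 (adjusted p = 3.25e-07). In LPS_IFNg against control, where Myc fell, 9 of these targets rose and 10 fell. Ccnd2 rose by 4.34 ± 0.24 and Cdkn1a, a cell cycle inhibitor that Myc is known to repress, by 2.49 ± 0.11, while the transferrin receptor gene Tfrc fell by 2.19 ± 0.20 and the folate carrier gene Slc19a1 by 1.34 ± 0.12. Most dividing cell markers tested fell with emodin, as given above (6 of 9, against 36.8% of all genes, Mki67 being the 1 that rose). Their part in these changes was not tested.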

How the data were processed

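Each deposited scanner file gives the intensity of every spot of 1 array. The submitters' processing notes name Agilent Feature Extraction 10.7.3.1 as the program that made them. The processed signal used here is background-subtracted, with flags for background, saturation and outlier spots, per the file headers. The authors' deposited value table, used only as an alternative, holds log2 values, in which the columns named for control replicates 1, 3 and 4 held the arrays scanned for replicates 4, 1 and 3.

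Of 62976 spots per array 59305 were not controls, and 78 to 415 outlier spots per array were left out. The mean of a probe's spots was taken, and the array's 75th percentile over probes other than controls was subtracted on the log2 scale. A probe stayed in (27370 of 55681) if some group had it well above background on each of its 4 arrays. Accessions without versions were matched to RefSeq symbols of GRCm38.p6, which named 27509 probes with 20887 symbols, and the kept probe with the highest mean stood for a gene. Group means were fitted to all 12 arrays with limma 3.58.1 in R 4.3.3 (lmFit, contrasts, eBayes; 9 residual and 2.50 prior degrees of freedom), two-sided, with a threshold of 0.05 on the Benjamini-Hochberg adjusted p. That script was tested on simulated data. A fold given as "at least" is a bound, for a probe that no array of the lower group detected. It sets the higher group's mean against a floor averaged over the lower group's arrays, on each of which the floor was the lowest detected signal or, if that was higher, the signal measured for the probe. Arrays have no depth, and their number limits the precision.

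Alternatives changed the background method (normexp with offset 50 on median signals, as the files carry no mean signal), the scaling, the probe filter, the choice of probe, the arrays fitted and the replicate block, and left out each array. Replicate numbers were shared by the groups. Same-numbered LPS_IFNg_emodin and LPS_IFNg arrays deviated together (correlations 0.23, 0.28, 0.16 and 0.15 across genes), whereas those with control did not (0.14 to -0.14 and 0.05 to -0.19). The main fit nevertheless had no replicate term, so its changes, errors and p-values are unpaired. Replicate numbers entered only as the block of the alternatives.

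Values on every array are given for Myc, Max and Mxd1 and for the members of each other role with the highest and lowest change in either of the 2 steps, and for other lists up to 2 genes with the largest called rise and fall. The members and lists were chosen with earlier results of these data known. Neutrophil marker Ly6g and macrophage marker Cd68 had no matching symbol.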

Additional observations from a re-analysis of the deposited data

Results flagged for a closer look

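In 11 of the 102 groups of 4 arrays examined, 3 for each member, 1 array stood apart from the other 3 by more than Dixon's criterion, which chance alone would give in about 1 group in 20. LPS_IFNg_emodin replicate 1 was the low array in 6 of them: 2.39 for Nop58, 2.43 for Nolc1, -1.73 for Utp20, -3.11 for Rrp12, -1.80 for Wdr12 and 4.09 for Nip7, all as log2 signal over the 75th percentile. That array was the lowest of its group for 29 of the 34 members. Nop56 was low on LPS_IFNg replicate 3 (4.28), the lowest array of its group for 23 members, and Ddx21 was high on LPS_IFNg replicate 2 (3.53). In control, Pes1 was low on replicate 3 (2.82), where Mxd1 was high (0.27), and Rrp12 was high on replicate 4 (-1.33). The cause of these deviations was not tested.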

How the results depend on the processing

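In LPS_IFNg against control, the 4 members called up became 7 with only probes detected on all arrays and with only the control replicates labelled female, and were 4 to 7 when single arrays were left out (7 without LPS_IFNg replicate 1 or control replicate 4). Of all genes 35.1% and 31.4% rose in the first 2 of these settings, and 32.0% to 33.8% with single arrays left out. The 9 called down were 6 to 11 and the median -0.12 to -0.00 in those fits, with 6 without LPS_IFNg replicate 3 or control replicate 1. Of all genes 32.9% to 35.6% fell in the same fits. The members called down were 12 with quantile scaling (median -0.19) and 12 with the percentile over probes detected on all arrays (-0.18). With these scalings 41.5% and 42.3% of all genes fell, with medians of -0.13 and -0.16. In LPS_IFNg_emodin against LPS_IFNg, spike-in scaling gave 2 up, 22 down and a median of -0.59, and single arrays left out gave 11 to 13 up, 11 to 14 down and medians of -0.00 to 0.13. Of all genes 9.24% rose and 65.3% fell with spike-in scaling (median -0.67). With single arrays left out 33.4% to 35.6% rose and 35.3% to 37.2% fell. In LPS_IFNg_emodin against control, single arrays left out gave 10 to 13 up and 14 to 16 down, with medians of -0.18 to -0.07. The median became -0.33 with quantile scaling and with the deposited value table, each with 9 up and 17 down. The median of all genes was -0.14 with each of these, as 33.3% and 33.1% rose and 44.1% fell. The percentile over probes detected on all arrays gave 10 up and 17 down, against 32.9% and 45.5% of all genes. Averaging probes gave 8 up and 15 down, against 38.8% and 39.2%. With only the control replicates labelled female 10 rose and 17 fell, against 36.9% and 38.5%. With single arrays left out 37.9% to 39.2% of all genes rose and 37.6% to 39.4% fell. The percentile over probes detected on all arrays moved the median of all genes to -0.16 in LPS_IFNg against control and -0.18 in LPS_IFNg_emodin against control.

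With spike-in scaling 13 members turned below 0 in LPS_IFNg_emodin against LPS_IFNg: Max (-0.44), Nop58 (-0.45), Nhp2 (-0.44), Nolc1 (-0.17), Nop14 (-0.31), Wdr43 (-0.60), Bysl (-0.24), Nop2 (-0.011), Nop16 (-0.58), Rrs1 (-0.57), Ddx21 (-0.12), Mybbp1a (-0.33) and Ncl (-0.26). Averaging probes turned Wdr43 to -0.59 and Ncl to -0.085 in that comparison, and Ncl to -0.082 in LPS_IFNg_emodin against control. These settings act on the scale and on the probes by construction, and further causes were not tested.

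With the replicate block on the 8 arrays of LPS_IFNg_emodin and LPS_IFNg, 13 members rose and 15 fell, against 35.8% and 37.1% of all genes. It added calls for Mybbp1a, Dkc1, Gar1 and Wdr75 and changed no other member's call in that comparison. Leaving out replicate 3 of both groups, where sex-linked transcripts went against the label, gave 11 up and 13 down, against 32.9% and 34.1% of all genes. It gave 4 up and 6 down in LPS_IFNg against control, against 32.2% and 33.7% of all genes, and Nolc1 lost its rise with emodin (0.40). Signal limits little here, since all member probes were well above background, while 4 arrays a group limit the precision.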
